A study of Mus musculus with 12 samples.

Results

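Keratin-associated proteins are the matrix proteins of the hair shaft, in which they surround and cross-link the keratin filaments. They are made late in shaft formation by cells of the cortex and cuticle, while the follicle is growing hair. Their families are split by amino acid content: high glycine-tyrosine families (here Krtap6, Krtap7, Krtap8, Krtap16, Krtap19, Krtap20, Krtap21 and Krtap22) and cysteine-rich, sulfur-rich families (the others). All probes whose accession named a mouse gene with a symbol beginning with Krtap were taken, which gave 65 of 39429 non-control probes and 51 of 20659 named genes. Of these 51 genes, 16 with 23 probes were high glycine-tyrosine and 35 with 42 probes were sulfur-rich. The members were chosen by name and not by their values.

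RNA of 12 samples was hybridised in Cy5 against a pool of all conditions in Cy3, with 1 array for each combination of genotype (Eng+/- or wt), day (50 or 90) and treatment (none named, clp or tpa). Eng encodes endoglin, a co-receptor of the Tgf-β and Bmp pathways, and the series concerns its part in the hair cycle. The labels do not say what clp and tpa stand for or what the days count, and 2 wt arrays, those without a named treatment, are titled as pools. Each treatment level was hybridised on a slide of its own, so that slide and treatment cannot be told apart. Eng itself was lower on the Eng+/- array by 0.28 to 1.61 on the log2 scale in 5 of the 6 genotype pairs, whereas on the array labelled Eng+/-, tpa, 50 d it was 0.63 higher than on its wt partner.

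The labels name embryonic stem cells as the material. Of 10 genes listed as markers of such cells, 6 were above background on every array, Nanog among them, but the defining markers Zfp42 and Pou5f1 were so on 0 and 1 of 12 arrays. Of 13 hair shaft keratins on the array design, 10 were above background throughout, and so were 11 of 11 epidermis genes. The Eng+/- array with no named treatment at 90 d stood with both tpa arrays at 50 d (correlation of log2 ratios over all genes 0.957 and 0.969) and apart from the other arrays with no named treatment (0.681 to 0.778). Fitted medians over all tested Krtap genes that rest on that array are given with and without it. Medians of classes, clusters, other subsets, gene lists and single pairs are given only with it.

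Most Krtap probes were bright. Of the 65 probes, 60 were above background in Cy5 on all 12 arrays, and 48 had a saturated Cy5 spot on at least 1 array, where a value is only a lower limit of the signal. Tests used 1 probe per gene and covered 50 genes. The exception was Krtap13, which lies with other sulfur-rich genes on chromosome 16 and whose only probe was above background on 0 of 12 arrays. Of the 50 genes, 36 were saturated on at least 1 array: 15 of 16 high glycine-tyrosine genes and 21 of 34 sulfur-rich genes. Krtap7-1 was the only high glycine-tyrosine gene never saturated. Saturation was unevenly spread, with 36 genes saturated on the wt clp array at 50 d, 30 on the wt clp array at 90 d, 27 on the wt tpa array at 90 d and 17 on the Eng+/- clp array at 50 d. On the other arrays it affected at most 6 genes.

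The genes moved together across the arrays. A value here is log2(Cy5/Cy3), the level in the sample relative to the pool, and was set against the gene's own median over 12 arrays, because levels of different probes cannot be compared. The median Krtap gene stood 2.60 above its own median on the wt clp array at 50 d, 2.21 on Eng+/- clp at 50 d and 1.72 on wt clp at 90 d. It stood 5.22 below on Eng+/- with no named treatment at 90 d, 4.25 below on wt tpa at 50 d and 3.79 below on Eng+/- tpa at 50 d. In 48 of 50 genes these last 3 arrays were the lowest, and in 43 genes the Eng+/- array with no named treatment at 90 d was the lowest of all. The highest array was wt clp at 50 d in 22 genes, Eng+/- clp at 50 d in 17, wt clp at 90 d in 10 and wt with no named treatment at 90 d in 1 (Krtap11-1), and in 28 genes the spot on that array was saturated.

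**Figure D1:**
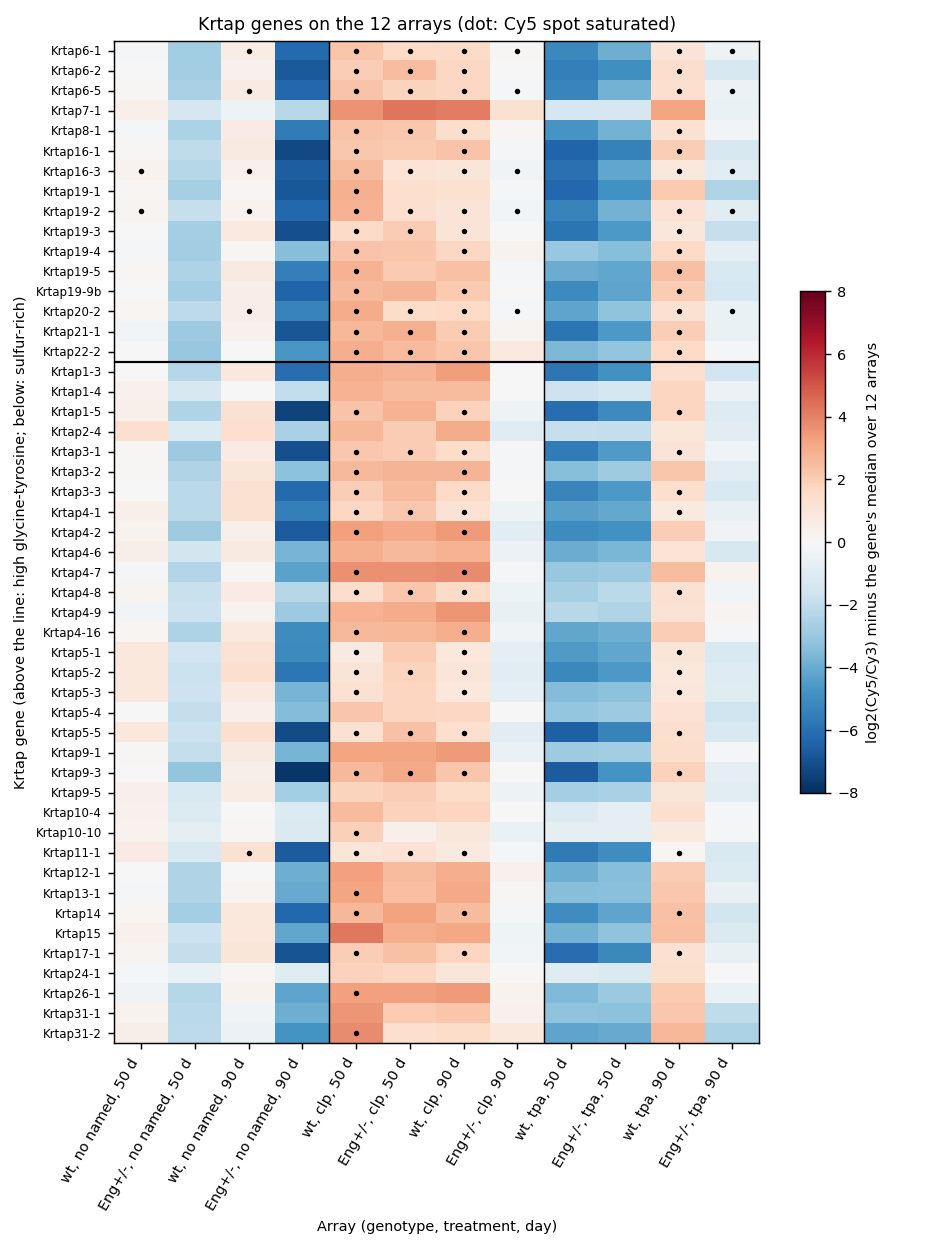
Log2(Cy5/Cy3) of the 50 tested Krtap genes (rows) on the 12 arrays (columns), each gene minus its own median over the arrays (colour), with dots on saturated Cy5 spots. The Eng+/- array with no named treatment at 90 d and both tpa arrays at 50 d are blue, and the wt clp arrays and the Eng+/- clp array at 50 d are red.

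The distance between a gene's lowest and highest array had a median of 7.94 on the log2 scale. It was longest in Krtap9-3 (10.8), an ultra-high-sulfur gene on chromosome 11, and shortest in Krtap24-1 (3.00), a sulfur-rich gene on chromosome 16. Krtap9-3 ranged from -9.53 on the Eng+/- array with no named treatment at 90 d to 1.30 on the Eng+/- clp array at 50 d, which was saturated. Krtap24-1 ranged from -1.12 to 1.88 with no saturated spot, but its lowest values lay near background, which shortens its range. The median distance was 6.44 for the 14 genes that were never saturated and 8.54 for the 36 that were. The 3 genes on chromosome 10, of the Krtap10 and Krtap12 families, had a median distance of 3.65, and only Krtap12-1 among them (7.21) was near the others.

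Other hair genes were low on the same 3 arrays, by unlike amounts. On these arrays the median of the 13 tested hair shaft keratins lay 3.63 to 4.42 below the genes' own medians. That of the 12 inner root sheath genes lay 4.09 to 5.57 below, and that of the 12 melanocyte genes 1.74 to 1.87 below. Other hair lists moved less, with array medians of -0.80 to -0.56 for hair shaft regulators and -1.18 to -0.73 for other hair shaft proteins. The lists of other cell types stayed near 0 on these arrays: the array medians were -0.12 to 0.05 for the epidermis list, 0.01 to 0.17 for dermal fibroblast, 0.03 to 0.13 for skeletal muscle, -0.00029 to 0.29 for sebaceous gland, 0.11 to 0.31 for adipocyte, 0.09 to 0.43 for macrophage and -0.0067 to 0.06 for embryonic stem cell genes. Cell cycle genes lay 0.36 to 0.54 below. In bulk RNA, fewer hair-forming cells and less Krtap RNA per cell cannot be told apart.

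High glycine-tyrosine and sulfur-rich genes followed the same order of arrays but differed in depth on 2 of the 3 low ones. On the Eng+/- array with no named treatment at 90 d the median high glycine-tyrosine gene stood at -6.28 and the median sulfur-rich gene at -4.20, a gap of -2.08. On the wt tpa array at 50 d the medians were -5.22 and -3.83, a gap of -1.39. On the other 10 arrays the gap lay between -0.69 and 0.20, the third low array, Eng+/- tpa at 50 d, among them (-0.64). Among saturated genes alone the gaps on the first 2 arrays were -0.85 and -0.78, and on Eng+/- tpa at 50 d the gap was 0.03. Part of the gap thus ran with brightness. Whether class or brightness accounts for it was not tested. Krtap16-1 is named with the high glycine-tyrosine genes but lies in the sulfur-rich cluster on chromosome 11. Moving it to the sulfur-rich genes left the gaps on the first 2 arrays at -2.04 and -1.26, and that on Eng+/- tpa at 50 d at -0.51.

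**Figure D2:**
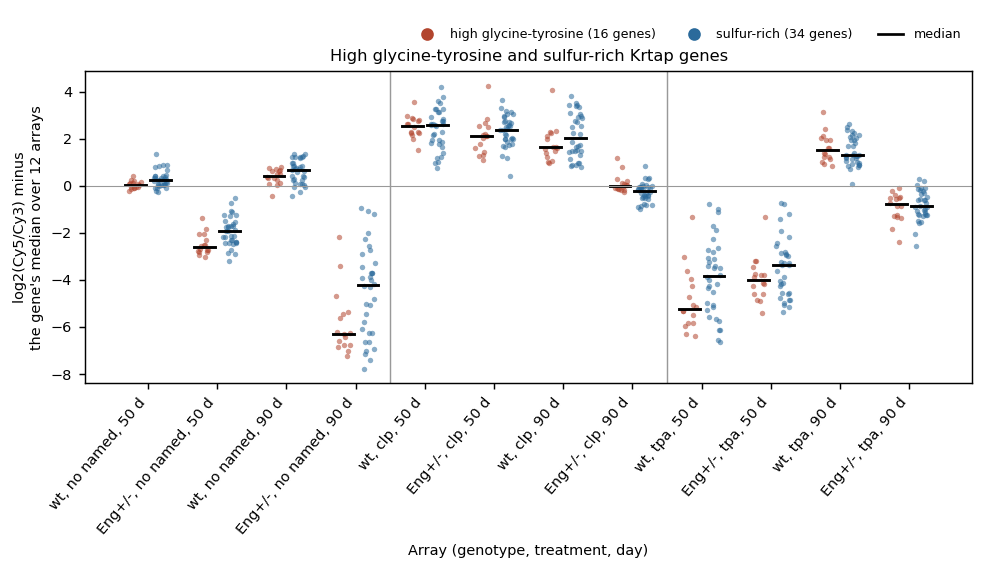
Log2(Cy5/Cy3) minus the gene's median over 12 arrays, for 16 high glycine-tyrosine genes (red) and 34 sulfur-rich genes (blue) on each array, with black bars for the medians. The medians of the classes lie close together except on the Eng+/- array with no named treatment at 90 d (-6.28 and -4.20) and the wt tpa array at 50 d (-5.22 and -3.83).

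The clp arrays were compared with the arrays of no named treatment over both genotypes and days (4 arrays against 4). All 50 Krtap genes had higher values with clp, with a median log2 difference of 3.43 (median SE 0.84) against 0.01 over all 25108 features. By limma with Benjamini-Hochberg adjustment over all features, 25 Krtap genes rose and 0 fell, while 4.25% of all features rose and 7.73% changed in either direction. The called genes were 6 of 16 high glycine-tyrosine genes and 19 of 34 sulfur-rich genes. The values of the 4 clp arrays lay above those of all 4 arrays with no named treatment in 7 of 50 Krtap genes, compared with 5.29% of all features.

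Krtap7-1, a high glycine-tyrosine gene, had no saturated spot. With no named treatment its log2 ratio was -3.76 on wt at 50 d, -4.57 on wt at 90 d, -5.51 on Eng+/- at 50 d and -6.36 on Eng+/- at 90 d. With clp it was -0.60 on wt at 50 d, -0.09 on wt at 90 d, 0.10 on Eng+/- at 50 d and -2.97 on Eng+/- at 90 d. The groups did not overlap, and the difference was 4.16 ± 0.63 (SE, limma adjusted p = 0.0175). Krtap12-1, a sulfur-rich gene on chromosome 10 that was never saturated either, had -1.75, -1.86, -4.23 and -5.72 with no named treatment on the same order of arrays. With clp it had 1.49, 1.10, 0.74 and -1.45. Its groups did not overlap, and it differed by 3.86 ± 0.61 (SE, limma adjusted p = 0.0175).

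Of the other high glycine-tyrosine genes, Krtap21-1 rose by 4.34 ± 1.09 (SE), Krtap22-2 by 4.04 ± 0.70, Krtap19-9b by 4.03 ± 1.03, Krtap19-5 by 3.57 ± 0.81 and Krtap19-4 by 3.14 ± 0.51, with limma adjusted p between 0.0178 and 0.048. All 5 were saturated on some clp arrays, Krtap21-1 and Krtap22-2 on 3, Krtap19-4 and Krtap19-9b on 2 and Krtap19-5 on 1. The 10 uncalled members of the class had differences of 3.14 to 3.83. Of these, Krtap6-1, Krtap6-5, Krtap16-3, Krtap19-2 and Krtap20-2 were saturated on all 4 clp arrays, and also on 1 or 2 arrays of no named treatment. Both sides being cut off, no size and no bound can be given for these 5. A further 31 of the 50 genes were saturated on 1 to 3 of the clp arrays, and their differences, given as fitted, are not exact sizes.

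The sulfur-rich genes spanned a wider range. Krtap4-7 on chromosome 11 rose by 4.43 ± 0.72 (SE, limma adjusted p = 0.0177), although its groups overlapped: it had -3.17, -3.01, -5.46 and -7.40 with no named treatment and 0.54, 0.72, 0.58 and -3.17 with clp, on the same order of arrays. The first 2 clp values, both wt, were saturated. Krtap4-2 rose by 4.42 ± 1.01 (also saturated on both wt clp arrays), Krtap26-1 by 4.20 ± 0.72 (saturated on 1 clp array) and Krtap1-3, never saturated, by 4.14 ± 1.02. At the other end, Krtap24-1 rose by 1.47 ± 0.19 and Krtap10-10 by 1.05 ± 0.25, with limma adjusted p of 0.015 and 0.0396. Krtap24-1 was above background on 10 of 12 arrays, with Cy5 intensities of 83.5 to 93 on 4 arrays, where those of Krtap13 were 65 to 79. Its difference was therefore cut short at the low end, and it was 2.79 from the scanner's processed signals. Krtap9-3 had the largest difference of all, 4.58 ± 1.30, but it was not called (limma adjusted p = 0.0617) and was saturated on 3 of 4 clp arrays. Krtap14, on chromosome 16, had 4.06 ± 1.10 and was not called (limma adjusted p = 0.0548). By cluster, the medians were 3.43 for 20 sulfur-rich genes on chromosome 11 (11 called), 3.69 for 6 on chromosome 16 (4 called), 2.06 for the 5 Krtap5 genes on chromosome 7 (Krtap5-4 alone called, 2.61 ± 0.56) and 1.97 for the 3 on chromosome 10 (all called).

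Genes without saturated spots were called more often, and their errors were smaller; the difference was not tested. Of the 14 genes never saturated, 12 were called, with a median of 3.12, and of the 36 genes saturated on some array, 13 were called, with a median of 3.46. The median SE was 0.61 in the first set and 1.01 in the second.

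**Figure D3:**
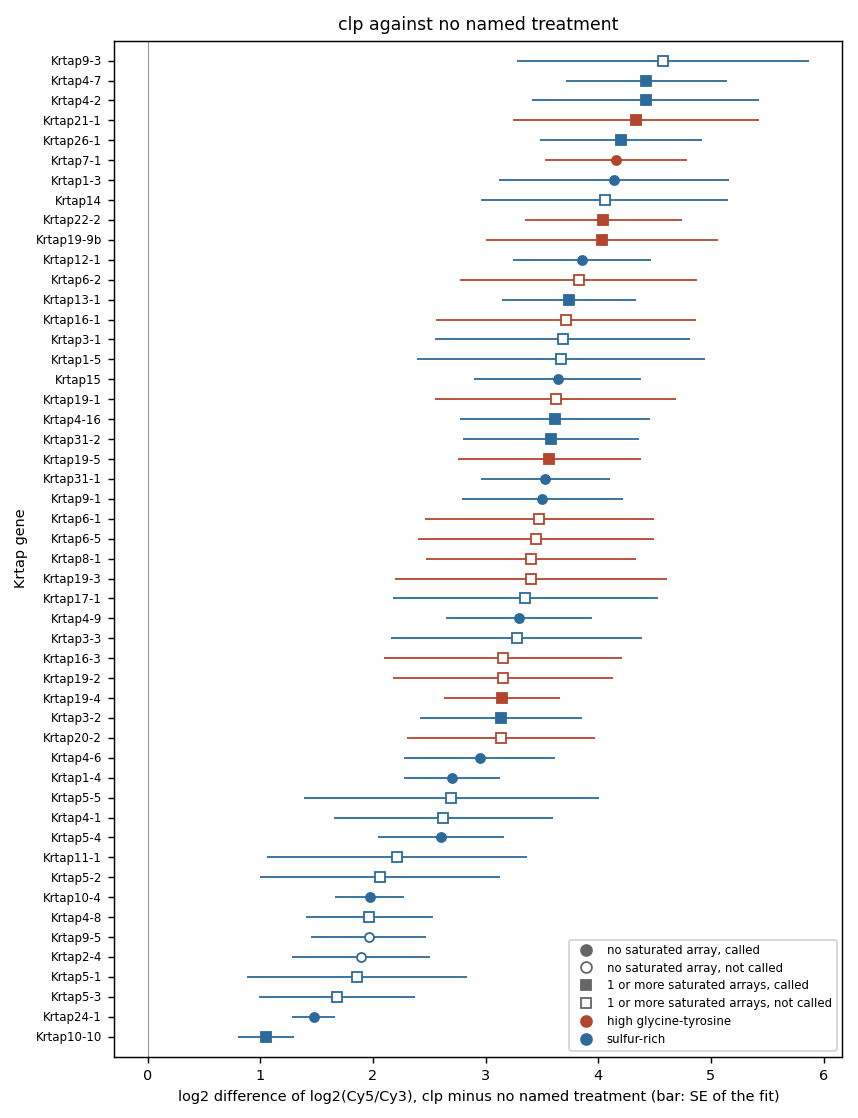
Log2 difference between clp and no named treatment for each tested Krtap gene, with the SE of the fit, by class (colour), call (filled) and saturation (shape). All 50 differences lie above 0, between 1.05 and 4.58, with 25 of them called. The values of the 5 genes saturated on all clp arrays are not measured sizes.

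The number of calls rested on single arrays: 0 Krtap genes were called without the wt clp array at 50 d (0.0119% of all features) or without the wt clp array at 90 d (0.0677%), 2 without Eng+/- clp at 50 d (1.61%) and 15 without Eng+/- clp at 90 d (5.82%). It was 49 without wt with no named treatment at 90 d (6.26% of all features), 10 and 11 without the Eng+/- and wt arrays of no named treatment at 50 d (2.33% and 3.87%), 16 without either tpa array at 90 d (3.02%), and 29 without the Eng+/- array of no named treatment at 90 d (17.9%). The median difference stayed between 2.15 (without that last array) and 4.47 in these fits.

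In the Krtap genes the reference channel was not constant, and its largest drops went with saturation. The pool was the same RNA on every array, yet on the wt clp array at 50 d the Cy3 signal of 20 Krtap genes lay at least 2-fold below the gene's own median over arrays. All 20 were saturated in Cy5 there, and they were 13 high glycine-tyrosine and 7 sulfur-rich genes. Krtap19-2 and Krtap20-2 had the largest drops, -4.61 and -4.58 on the log2 scale. The same was seen for 8 genes on the wt clp array at 90 d, 5 on wt tpa at 90 d and 3 on Eng+/- clp at 50 d, all saturated in Cy5, and for 0 on the other arrays. Krtap19-2 and Krtap20-2 were also the only tested Krtap genes with saturated Cy3 spots, on 2 and 5 arrays. Where both channels were saturated the ratio is bounded on neither side, and where only Cy3 was, it is an upper limit. Over all features on the wt clp array at 50 d, 93 (0.37%) lay as low, and 87 of these were saturated in Cy5. On the arrays of no named treatment 117 to 217 features lay as low, of which 0 to 53 were saturated in Cy5. Such drops were thus not confined to saturated spots. Lower Cy3 raises the ratio, so values of Krtap genes on arrays where their Cy3 dropped are not a measure of the sample alone. Cy3 also lay above the gene's own median in some genes, which lowers the ratio. On the wt clp arrays at 50 d and 90 d it stood 1.03 and 0.98 above in Krtap9-5. In Krtap5-4 it stood 0.80 and 0.68 above there. Neither gene was ever saturated. In Krtap10-10 it stood 1.03 above on wt clp at 90 d and 1.11 on Eng+/- clp at 50 d. The median Krtap gene deviated by -0.72 to -0.06 in Cy3 on the clp arrays. The part of these Cy3 changes in the differences was not tested. In the fit of Cy5 alone, which does not use Cy3, 29 Krtap genes rose with clp, 25 of them also called from the ratio, in a fit that called 24.4% of all features.

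Genes of the hair follicle listed by role had higher values with clp too. Of the 13 hair shaft keratins all were higher, with a median of 1.94, and 2 rose: Krt82 by 2.44 ± 0.41 (SE, limma adjusted p = 0.0186) and Krt40 by 2.19 ± 0.47 (SE, limma adjusted p = 0.0313). Of the 14 regulators of the shaft, 13 were higher and 3 rose: Lef1, the Wnt-pathway transcription factor of the hair matrix, by 1.41 ± 0.19, Foxn1, which is needed for shaft keratin expression, by 1.40 ± 0.24, and the Bmp receptor Bmpr1a by 0.77 ± 0.18. Of 9 other shaft proteins, Dsg4 and Dsc2, cadherins of the desmosome, rose. All 12 inner root sheath genes were higher and none was called. In the same comparison 5 of 7 macrophage genes, 4 of 8 dermal fibroblast genes, 3 of 11 epidermis genes, 3 of 9 sebaceous gland genes and 1 of 8 adipocyte genes fell, against 3.49% of all features. In turn 4 of 12 melanocyte genes and 3 of 12 cell cycle genes rose, and no gene of the skeletal muscle or embryonic stem cell lists was called. Array medians of the macrophage list were -1.09 to -0.47 with clp and 0.01 to 0.48 with no named treatment. Those of the dermal fibroblast list were -0.74 to -0.38 and 0.01 to 0.86. The part of such a shift between cell types in the Krtap differences was not tested.

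The tpa arrays gave no called Krtap gene over both days together. The median difference against no named treatment was -0.08, with 20 genes higher and 30 lower, and no Krtap gene was called at a limma adjusted p under 0.05 while 0.131% of all features were (0.0279% higher and 0.104% lower). At an unadjusted p under 0.05 there were 0 Krtap genes, against 26% of all features. The single pairs ran in opposite directions. At 90 d the median Krtap gene was higher by 1.17 in wt (44 genes not saturated on both arrays) and by 4.59 in Eng+/- (50 genes), and at 50 d it was lower by 4.51 in wt and 1.50 in Eng+/-. Without the Eng+/- array of no named treatment at 90 d the median was -1.28 and 8 genes were called lower, in a fit that called 19.8% of all features.

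The days differed most within tpa. In wt, all 50 Krtap genes were at least 2-fold higher at 90 d than at 50 d, with a median of 5.94, compared with 2.16% of all features. In Eng+/- all 50 were higher, 46 of them at least 2-fold, with a median of 2.82, compared with 2.63% of all features. Krtap12-1 stood at -5.69 and 0.26 in wt and at -5.18 and -2.91 in Eng+/-, at 50 d and 90 d. Krtap7-1 stood at -5.51 and -1.02 in wt and at -5.49 and -4.71 in Eng+/-. The fitted median over both genotypes was 4.36 (1.07 to 6.26). It was 4.15 with 5 genes saturated on both tpa arrays at 90 d set to bounds of at least 6.8-fold to at least 13.2-fold. On the wt tpa array at 90 d 27 genes were saturated in Cy5, so the wt and fitted medians are not exact sizes. Apart from fits that left out 1 array, the fitted median ranged from 2.76 to 4.64 under other processing. No gene was called by limma (smallest adjusted p 0.356), although 49 of 50 had an unadjusted p under 0.05, against 5.76% of all features. With median centring in place of loess 42 Krtap genes rose, against 0.976% of all features called in that fit, and without either array of no named treatment at 90 d 6 did, against 0.219%. Hair shaft keratins (median 3.59) and inner root sheath genes (median 4.30) were higher at 90 d in the same fit, 13 of 13 and 12 of 12, with none called.

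In clp the order of the days was the other way. In Eng+/- 45 genes were not saturated on both arrays, and all 45 were lower at 90 d, with a median of -2.60; 43 were at least 2-fold lower, against 2.86% of all features. In wt only 20 genes were not saturated on both arrays. Of these 14 were lower at 90 d, 4 of them at least 2-fold, against 0.9% of all features, with a median of -0.35. Some genes of both pairs were saturated on the array at 50 d alone, so the medians of these pairs are not exact. The fitted median over all 50 genes was -1.38, and no gene was called by limma (4 of 50 with an unadjusted p under 0.05, against 12.6% of all features). This median is not an exact size. For 17 genes, saturated on both clp arrays at 50 d and also on a clp array at 90 d, no size and no bound can be given. With no named treatment the median difference between days was 0.40 in wt and -3.02 in Eng+/-, where 42 of 50 genes were at least 2-fold lower at 90 d, against 4.33% of all features. It was -1.19 over both genotypes, with none called by limma and 0 at an unadjusted p under 0.05, against 5.48% of all features, and it was 0.92 without the Eng+/- array at 90 d. Over all treatments the day difference had a median of 0.60 with none called by limma and 0 at an unadjusted p under 0.05, against 1.21% of all features. The median over all treatments was 1.31 without the Eng+/- array of no named treatment at 90 d and -0.16 without the wt array.

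**Figure D4:**
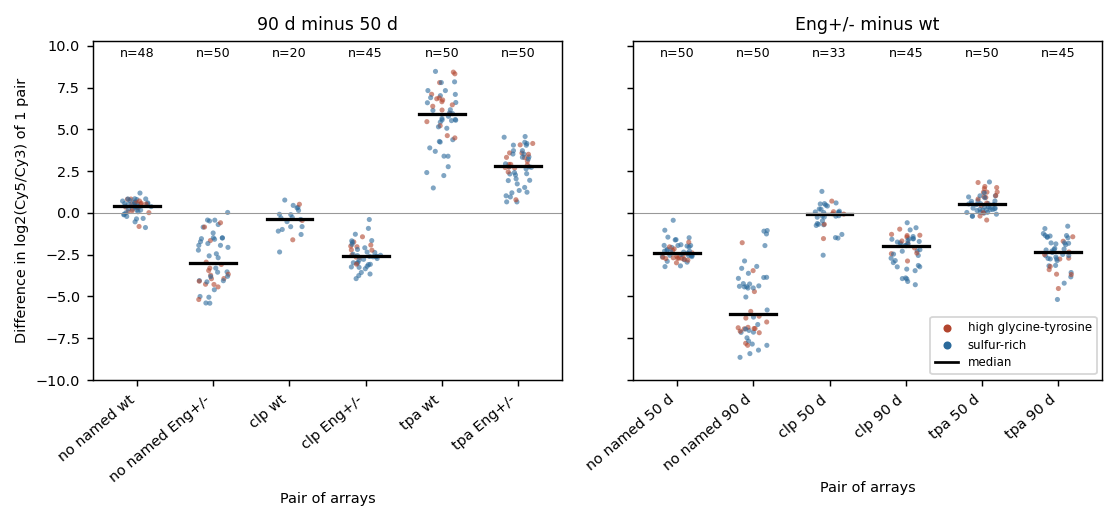
Difference in log2(Cy5/Cy3) of single Krtap genes within 1 pair of arrays, as 90 d minus 50 d (left) and Eng+/- minus wt (right), with black bars for medians and n the genes not saturated on both arrays. The tpa pairs on the left lie above 0 (medians 5.94 and 2.82), the Eng+/- clp pair below (-2.60), and on the right the pairs lie below 0 except clp at 50 d and tpa at 50 d. Genes saturated on only 1 array of a pair are kept, so the medians of such pairs are not exact.

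Krtap values were lower on Eng+/- arrays than on their wt partners in most pairs. All 50 genes were at least 2-fold lower with no named treatment at 90 d, with a median of -6.04, against 4.35% of all features, and 49 at 50 d, with a median of -2.42, against 4.04%. In clp at 90 d all 45 genes not saturated on both arrays were lower, 42 of them at least 2-fold (4.9% of all features), with a median of -1.96. In tpa at 90 d all 45 such genes were lower, 43 at least 2-fold (1.29% of all features), with a median of -2.37. At 90 d the wt array was saturated for 30 genes with clp and 27 with tpa, and the Eng+/- array for 5 in each pair. The medians of these pairs are therefore not exact sizes. In clp at 50 d 18 of 33 genes not saturated on both arrays were lower, with a median of -0.07. The wt array of that pair was saturated for 36 genes and the Eng+/- array for 17. Some of the 33 genes were therefore cut off in Cy5 on the wt side alone, and their split and median are not exact. In tpa at 50 d 44 of 50 genes were higher on the Eng+/- array, 12 at least 2-fold (0.207% of all features), with a median of 0.52. The tpa pair at 50 d was also the pair in which Eng itself was higher on the array labelled Eng+/-.

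Over the 6 pairs the fitted genotype difference had a median of -2.03 (-2.80 to -0.69), against -0.01 over all features, and all 50 genes had lower values. None was called by limma (smallest adjusted p 0.312, and no feature at all was called), and 44 of 50 had an unadjusted p under 0.05, against 13.3% of all features. The high glycine-tyrosine and sulfur-rich medians were -2.03 and -2.04. Without the Eng+/- array of no named treatment at 90 d the median was -1.25, and with median centring 25 Krtap genes were called lower, against 0.884% of all features called in that fit. For Krtap12-1 the difference was -2.05 (limma adjusted p = 0.312), and for Krtap24-1 it was -0.69 (limma adjusted p = 0.312). Hair shaft keratins (13 of 13 lower, median -1.62) and inner root sheath genes (12 of 12, median -1.53) had lower values on Eng+/- arrays in the same fit, with none called, while 11 of 11 skeletal muscle genes had higher values, with a median of 0.63.

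The genotype difference was more negative at 90 d than at 50 d in all 50 genes, but no gene passed the test. In the model with 2-way interactions the difference of differences had a median of -2.75, negative in all 50 genes, with no call by limma (smallest adjusted p 0.0554) and 47 of 50 genes at an unadjusted p under 0.05, against 3.58% of all features. Krtap14 had -4.02 ± 0.35 (SE) and Krtap1-3 -3.87 ± 0.36, both with a limma adjusted p of 0.0554. The genotype by treatment terms had medians of 2.85 for clp and 3.29 for tpa. Taken jointly they gave no call by limma (smallest adjusted p 0.179), with 42 of 50 genes at an unadjusted p under 0.05 against 2.61% of all features. Saturation fell mainly on the wt arrays of clp and of tpa at 90 d, so the medians of these terms are not exact sizes. With median centring they were 0.94 and 2.04, and from the scanner's processed signals 3.16 and 3.53. Without saturated probes, which left 16 Krtap genes, they were 1.205 and 1.629. With median centring 37 Krtap genes were called for genotype by day, against 0.585% of all features, and 30 for genotype by treatment, against 42.5%. This model has 2 residual degrees of freedom, and 1 when an array is left out. Without the Eng+/- array of no named treatment at 90 d the genotype by day median was -2.55, negative in all 50 genes, with 22 called by limma against 0.291% of all features. The treatment terms had medians of 2.50 and 2.71 in that fit, with 0 Krtap genes called. Leaving out any 1 array in turn gave 22 to 40 calls for genotype by day and 0 to 38 for genotype by treatment.

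RefSeq promoters (GRCm38.p6) were at hand for 46 of the 51 genes, and the 250 bases before the start were searched. The TATA box word TATAAA lay on the gene's own strand in the last 50 of these bases in 30 of 46 Krtap promoters (65.2%), 8 of 15 high glycine-tyrosine and 22 of 31 sulfur-rich ones, and in 2.88% of all 27025 promoters. In these it most often began 30 or 31 bases before the start. Words for LEF1/TCF factors (the word CTTTGAA, or its variant CTTTGAT, or else the word CTTTGTA, or its variant CTTTGTT, on either strand) lay in 34.8% of Krtap and 14.9% of all promoters. Words for GATA factors (the word AGATAA, or its variant AGATAG, or else the word TGATAA, or its variant TGATAG, on either strand; the last pair can overlap CTTTGAT) lay in 39.1% and 27.1%. A match is a run of letters and not a binding site. The 150 bases before the start are printed for the called gene with the highest clp difference in each class and chromosome among those with a RefSeq promoter, and for Krtap13, which was not above background. Capitals mark any of the words above.
Krtap21-1: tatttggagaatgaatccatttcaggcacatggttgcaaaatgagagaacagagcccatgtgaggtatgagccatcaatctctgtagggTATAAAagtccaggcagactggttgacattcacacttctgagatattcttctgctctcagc
Krtap26-1: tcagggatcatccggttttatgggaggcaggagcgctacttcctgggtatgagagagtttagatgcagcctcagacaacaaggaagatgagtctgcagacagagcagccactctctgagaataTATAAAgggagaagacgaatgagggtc
Krtap4-7: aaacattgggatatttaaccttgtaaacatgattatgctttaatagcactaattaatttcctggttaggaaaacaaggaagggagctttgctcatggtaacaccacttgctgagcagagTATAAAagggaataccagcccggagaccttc
Krtap10-4: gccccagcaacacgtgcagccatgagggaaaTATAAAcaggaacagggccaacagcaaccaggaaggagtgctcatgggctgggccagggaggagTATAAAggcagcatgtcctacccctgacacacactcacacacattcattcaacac
Krtap5-4: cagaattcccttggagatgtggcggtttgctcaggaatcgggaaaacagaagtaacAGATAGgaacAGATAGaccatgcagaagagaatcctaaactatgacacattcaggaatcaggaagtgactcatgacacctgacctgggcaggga
Krtap13: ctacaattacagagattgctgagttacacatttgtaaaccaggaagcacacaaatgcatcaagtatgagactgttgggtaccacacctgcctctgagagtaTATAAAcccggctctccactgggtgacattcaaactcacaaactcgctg
These are Krtap21-1 (chr16:89403775-89403924, minus strand), Krtap26-1 (chr16:88647797-88647946, minus strand), Krtap4-7 (chr11:99644090-99644239, minus strand), Krtap10-4 (chr10:77827071-77827220, minus strand), Krtap5-4 (chr7:142303352-142303501, plus strand) and Krtap13 (chr16:88751629-88751778, minus strand). TATAAA stands in these 150 bases in Krtap13 and in 4 of the 5 called genes, though within the last 50 bases only in Krtap13, Krtap26-1 and Krtap4-7. Krtap5-4 holds GATA words but not TATAAA in this window.

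Related probes were compared last, since these genes lie in clusters of near-identical copies. In all, 10 genes had more than 1 probe, with 24 probes. For Krtap5-5, an ultra-high-sulfur gene of the hair cuticle family, 3 probes followed the other Krtap genes and the fourth, A_66_P101703, did not. The 3 had log2 ratios of -4.55 to -6.57 on the Eng+/- array with no named treatment at 90 d and 2.95 to 3.25 on the Eng+/- clp array at 50 d. The fourth lay between -1.51 and -0.77 on all 12 arrays and was above background on each of them. In clp against no named treatment the 3 had differences of 2.24 to 2.71 and the fourth -0.20 ± 0.16 (SE, limma adjusted p = 0.442).

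**Figure D5:**
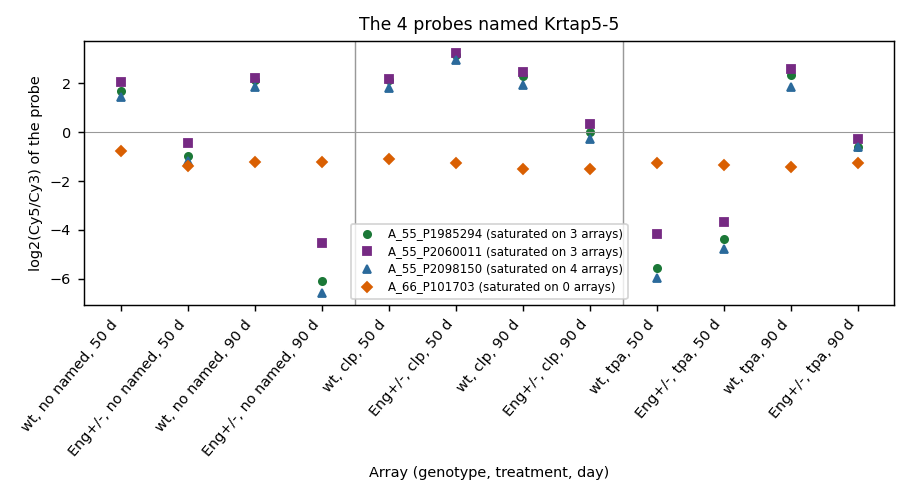
Log2(Cy5/Cy3) of the 4 probes named Krtap5-5 on the 12 arrays. The probes saturated on 3 or 4 arrays move together, from -4.55 or lower on the lowest array to 2.95 or higher on the highest, and A_66_P101703, never saturated, stays between -1.51 and -0.77.

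The probes of Krtap20-2 gave unlike values as well. In tpa, 90 d against 50 d, 3 of them gave 0.85, 4.07 and 5.40, and A_55_P1966236, the lowest, was above background on 7 arrays only. Another probe of the gene, A_55_P2070940, entered no fit. In clp against no named treatment the same 3 probes gave 1.95, 3.14 and 4.38, of which the last 2 were saturated on all 4 clp arrays, so that their sizes cannot be compared. Across the tested genes with several probes the sign differed between probes in clp only for Krtap5-5, and in tpa for Krtap19-9b, Krtap20-2, Krtap4-16, Krtap6-1 and Krtap6-5. Whether a probe also binds RNA of a related gene was not tested, and a probe's value is therefore uncertain for a single gene of a cluster.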

How the data were processed

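Agilent 2-colour arrays (design 026655) measured 12 samples in Cy5 against a common pool in Cy3, with 1 array for each combination of genotype, day and treatment. The deposited scanner files hold spot intensities extracted by the authors with Feature Extraction 10.7.3.1 per the file headers (10.0 per the submitters' processing notes). The deposited value table equals the scanner's log10 ratio of Cy5 over Cy3 per the file headers (largest difference 0) and served as the check of the processed signals. Control spots were given no weight, and 975 probes with outlier flags were left out.

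Median intensities were corrected with normexp (offset 50) and loess-normalised within arrays in limma 3.58.1 (R 4.3.3). Probes above background in Cy5 on at least 2 arrays were kept (30523 of 39429), and each gene was represented by its brightest probe on average, which gave 25108 features, 17189 with a symbol. All 12 arrays entered each fit, with genotype and 6 conditions (5 residual degrees of freedom) or all 2-way interactions (2), eBayes with a trend, and Benjamini-Hochberg adjustment over all features at 0.05. With 1 array per combination, the error comes from combinations and not from replicates, and nothing says whether the samples came from separate animals. The number of arrays limits the precision.

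Bounds for genes saturated on all arrays of one side and none of the other came from the Cy5 channel after loess and Aquantile and are open to dye bias, since no dyes were swapped. On simulated data for clp against no named treatment (200 of 25108 features changed), limma recovered 61.5% at a log2 change of 1, 92.5% at 2 and 100% at 4. False calls numbered 8, 7 and 12. The changed features were drawn at random, with noise independent between features and no saturation, so these rates need not hold for Krtap genes. Genes named are mainly the highest and lowest differences of each comparison, the high glycine-tyrosine genes, and genes on which a check of probes turned. Some genes, Krtap12-1 among them, fell under none of these rules. Krtap12-1 was named with earlier results of these data known and is not an independent example. The members and lists were chosen with earlier results of these data known. A split of members by cysteine share was not made, and the probe with the fewest saturated spots, the joint removal of 2 wt arrays, and the comparison of the day difference between treatments were added after seeing the data. Promoter sequences are RefSeq's (GRCm38.p6).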

Additional observations from a re-analysis of the deposited data

Results flagged for a closer look

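The Krtap genes differed between clp and tpa in the direction of the day difference. Among 20 genes not saturated on both arrays of any of the 4 pairs, 14 were lower at 90 d than at 50 d in both clp pairs and higher in both tpa pairs: 2 high glycine-tyrosine genes (Krtap19-1 and Krtap19-5) and 12 sulfur-rich genes, Krtap12-1 and Krtap24-1 among them. Of all features not so saturated, 14% showed the same pattern. Some of the wt clp differences were near 0, such as -0.08 for Krtap13-1 and -0.10 for Krtap4-6. Krtap10-10, Krtap13-1, Krtap19-1, Krtap19-5 and Krtap31-2 were saturated in Cy5 on the wt clp array at 50 d. Their wt clp differences are not exact, and their Cy3 differed between the wt clp arrays too. Against the gene's own median it stood at -0.28 at 90 d and -1.08 at 50 d in Krtap19-5. In Krtap10-10 it stood at 1.03 and -0.08, and in Krtap31-2 the other way, at -0.12 and 0.07. The part of Cy3 in these signs was not tested. In the test of the difference between the 2 day effects (tpa minus clp), the fitted median over 50 genes was 5.92 on the log2 scale. It is not an exact size, since 17 of these genes were saturated on both clp arrays at 50 d and also on a clp array at 90 d. No gene was called by limma (smallest adjusted p 0.0897, Krtap24-1, 2.97 ± 0.39), and 50 of 50 had an unadjusted p under 0.05, against 13.9% of all features.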

How the results depend on the processing

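Median centring in place of loess raised the number of called Krtap genes to 49 for clp, 25 for Eng+/- against wt, 42 for the days in tpa, 37 for genotype by day and 30 for genotype by treatment, and took the all-feature median to 0.24 for clp and 0.34 for tpa, from 0.01 and -0.0014. Without saturated probes 16 Krtap genes were tested and 13 rose with clp, and without the wt arrays of no named treatment at 50 d and clp at 90 d together 0 did. Leaving out 1 array at a time gave 0 to 49 calls for clp, 0 to 8 for tpa, 0 to 2 for the days with no named treatment, 0 to 6 for the days in tpa, 22 to 40 for genotype by day, 0 to 38 for genotype by treatment, and 0 for the genotype, for the days over all treatments and for the days in clp. The cause was not tested. Of 334 medians under an alternative, 21 moved beyond the spread, and of 429 values of single genes 49 lost and 22 gained a call, with 0 reversed. The high glycine-tyrosine minus sulfur-rich median for clp was 0.23 and ranged from -0.18 to 0.70 apart from the leave-one-out fits. No paired analysis was possible because the labels give no replicate numbers, in the sense of a replicate block; the fits hold treatment and day as terms, so the genotypes are compared within 6 matched pairs. Saturation limits what ratios of the brightest genes show.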
